A study of Mus musculus with 6 samples.

Results

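The mitochondrial genome transcripts described here are the genes that the deposited expression table places on the mitochondrial chromosome, 37 of the 41079 genes listed. They comprise 13 protein-coding genes, 2 ribosomal RNA (rRNA) genes and 22 transfer RNA (tRNA) genes on a circular genome of 16299 bp in the mouse build GRCm39. All the libraries came from D10 cells, a cloned mouse CD4+ helper T cell line, cultured for 24 h at 26°C (cold-acclimated T cells, 3 libraries) or for 24 h at 37°C (non-acclimated T cells, 3 libraries). D10 is 1 clone, so the p-values below speak of the spread between cultures of that clone. The labels say that RNA was extracted in old and new experimental batches used as biological replicates, without saying which library belongs to which batch. Poly(A)+ RNA was selected for the libraries, and the values are TPM (a per-length measure of transcript abundance), in which the reads of a gene are divided by its length and each library is scaled to the same total.

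The mitochondrial genome is transcribed from both strands as long precursors, from which the tRNAs are cut out together with the rRNAs and mRNAs that lie between them. Its mRNAs encode core subunits of the respiratory chain and of ATP synthase, while the other subunits and all the proteins that copy, transcribe, process and translate the genome are made from nuclear genes. Most mitochondrial mRNAs and the rRNAs carry poly(A) tails added inside the organelle, whereas mature tRNAs end in CCA and carry none. T cells draw on this respiratory chain in the resting state and after activation. In a culture measured in bulk, fewer mitochondrial genomes per cell and fewer transcripts per genome cannot be told apart.

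As recovered from the steps of the TPM values, the libraries held between 16899964 and 31291177 reads, of which between 148611 and 433864 belonged to mitochondrial genes. Of 12 T cell markers, 10 passed the filter on low values and limma called 0 (0 at an unadjusted p under 0.05 and 0 with voom), and their summed level lay between 3352 and 5068 TPM. Cd3e, Cd3g and Gata3 were present throughout, Thy1 was listed at 0 in every library, and Cd4 was at 310 and 328 TPM in the libraries of replicate 3 but between 0.0351 and 1.30 TPM in the other 4, against the CD4+ label. The T cell receptor gene Trac was at 14.96 and 12.82 TPM in the libraries of replicate 2 and between 129 and 207 TPM in the other 4, and Cd3d at 64.3 and 78.6 TPM against 240.1 to 332 TPM. Replicates 2 and 3 were thus each set apart by some of these markers, alike at both temperatures, and replicate 2 is also the one in which the summed levels of each mitochondrial class differed most between the temperatures. The summed level of 8 B cell markers was between 1.02 and 3.62 TPM and that of 7 macrophage and monocyte markers between 2.87 and 21.5 TPM, highest in the libraries of replicate 3 (16.0 and 21.5 TPM, against at most 5.20 TPM in the others). The part of these differences between cultures in the results was not tested. Genes averaging 1 TPM or more over the libraries, 12227 in number, were tested with limma on log2(TPM + 1), and a gene was called when its Benjamini-Hochberg adjusted p was under 0.05 and its log2 fold change at least 1 in size. Over all tested genes the log2 fold change had a median of -0.34, and of 0.03 after median of ratios scaling, which evens out the libraries by the typical gene. Since libraries with the same replicate number deviated together, values within each replicate number and a fit with the replicate number as a term (limma, called the paired fit below) are given beside the results they change.

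Sequence was central to reading these values in 2 respects. The first is that 4649 bp of the mitochondrial genome, chrM:6394-11042 or 28.52% of its length, has a near-exact copy in the nuclear genome on chromosome 1, read on the minus strand of chr1:24650616-24655265 (4650 bp). A comparison of both reference sequences found 2 differences. The first is a substitution, T9461C, written as the mitochondrial base, its position on chrM counted from 1 on the plus strand, and the base of the copy; it falls at position 3 of mt-Nd3. The other difference is 1 added A in the copy within mt-Tr, at position 9829. The windows around both differences are shown. Only there could a read pair lying wholly within the copy be assigned to one genome or the other from the reference sequence alone. Whether D10 cells carry the reference bases at these positions was not checked. Capitals mark the first base that differs.
mitochondrial window 1, chrM:9431-9491, plus strand: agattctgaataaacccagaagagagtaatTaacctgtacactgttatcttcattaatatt
chromosome 1 window 1, chr1:24652168-24652228, minus strand: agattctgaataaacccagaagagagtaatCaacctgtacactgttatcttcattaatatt
mitochondrial window 2, chrM:9799-9859, plus strand: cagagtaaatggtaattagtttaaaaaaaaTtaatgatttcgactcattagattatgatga
chromosome 1 window 2, chr1:24651800-24651860, minus strand: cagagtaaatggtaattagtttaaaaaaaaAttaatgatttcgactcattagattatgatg

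The copied stretch holds 11 whole genes, namely the 6 protein-coding genes mt-Co2, mt-Atp8, mt-Atp6, mt-Co3, mt-Nd3 and mt-Nd4l and the 5 tRNA genes mt-Ts1, mt-Td, mt-Tk, mt-Tg and mt-Tr, and it reaches into mt-Co1 and mt-Nd4. How reads that align equally well to more than 1 place were counted is not given in the sources used here. The levels of these genes are therefore uncertain, and comparisons between genes are given apart from comparisons between conditions.

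The second respect is that a tRNA gene is far shorter than the fragments of a sequencing library, so that a read assigned to it can come from a longer RNA. The sequences of the 5 minus-strand tRNA genes with the highest levels are shown because most of the differences between conditions described below were found among them. They are written in the sense of the tRNA, from GRCm39, with the anticodon in capitals.
mt-Te (glutamate), chrM:14071-14139: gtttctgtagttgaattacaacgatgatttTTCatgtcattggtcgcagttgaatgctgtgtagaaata
mt-Tp (proline), chrM:15356-15422: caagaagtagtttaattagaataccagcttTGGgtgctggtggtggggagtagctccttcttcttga
mt-Tq (glutamine), chrM:3772-3842: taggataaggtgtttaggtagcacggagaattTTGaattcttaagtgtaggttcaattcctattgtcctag
mt-Ty (tyrosine), chrM:5260-5326: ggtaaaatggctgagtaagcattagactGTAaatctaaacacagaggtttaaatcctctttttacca
mt-Ta (alanine), chrM:5018-5086: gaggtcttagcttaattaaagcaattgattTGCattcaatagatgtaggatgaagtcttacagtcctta
Each anticodon is flanked by an anticodon stem in which 5 of 5 base pairs could form, counting G with T as a pair.

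The protein-coding genes fell into separate levels along the genome. In non-acclimated T cells, mt-Co1, the catalytic subunit of cytochrome c oxidase, was highest with a mean of 5043 ± 294 TPM (SD, n = 3). It was followed by mt-Nd1 of complex I with 4219 ± 773 TPM, mt-Cytb, the cytochrome b of complex III, with 2908 ± 308 TPM, and the complex I subunits mt-Nd2, mt-Nd6 and mt-Nd5 with 2227 ± 338, 1453 ± 442 and 1400 ± 88.7 TPM. mt-Nd4 stood lower at 781 ± 82.6 TPM. In this order, the ranges of mt-Co1 and mt-Nd1 overlapped, and from mt-Cytb to mt-Nd5 each gene overlapped with the next, whereas the lowest mt-Nd1 value was above the highest of mt-Cytb and mt-Nd4 was apart from the genes above and below it. In cold-acclimated T cells the spread was wider and each gene from mt-Co1 to mt-Nd4 overlapped with the next.

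The remaining protein-coding genes were far below mt-Nd4 in the same libraries. mt-Atp6, the membrane subunit a of ATP synthase, had 81.7 ± 24.4 TPM, and mt-Co3 and mt-Co2, the other mitochondrial subunits of cytochrome c oxidase, had 53.9 ± 7.91 and 45.8 ± 11.4 TPM. The small complex I subunit mt-Nd3 had 28.1 ± 11.1 TPM and mt-Nd4l had 3.84 ± 1.96 TPM. mt-Atp8, the short accessory subunit of ATP synthase, was represented by 1, 0 and 0 reads in the non-acclimated libraries.

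The low levels fell on the genes copied on chromosome 1. The genes were scanned for windows of 150 bases that also occur letter for letter elsewhere in GRCm39. All such windows of mt-Co2, mt-Atp8, mt-Atp6, mt-Co3 and mt-Nd4l were copied, as were 98.5% of those of mt-Nd3, 59.2% of those of mt-Nd4 and 23.6% of those of mt-Co1, against 0% in mt-Nd1, mt-Nd2, mt-Nd5, mt-Nd6 and mt-Cytb. No gene with all its windows copied exceeded 111 TPM in any of the 6 libraries, and the 5 genes with no copied window lay between 1108 and 8301 TPM. The 5 wholly copied genes together had 201, 194 and 161 TPM at 37°C and 167, 294 and 236 TPM at 26°C, so both conditions showed the same gap. The part of the copy in these low levels was not tested.

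**Figure D1:**
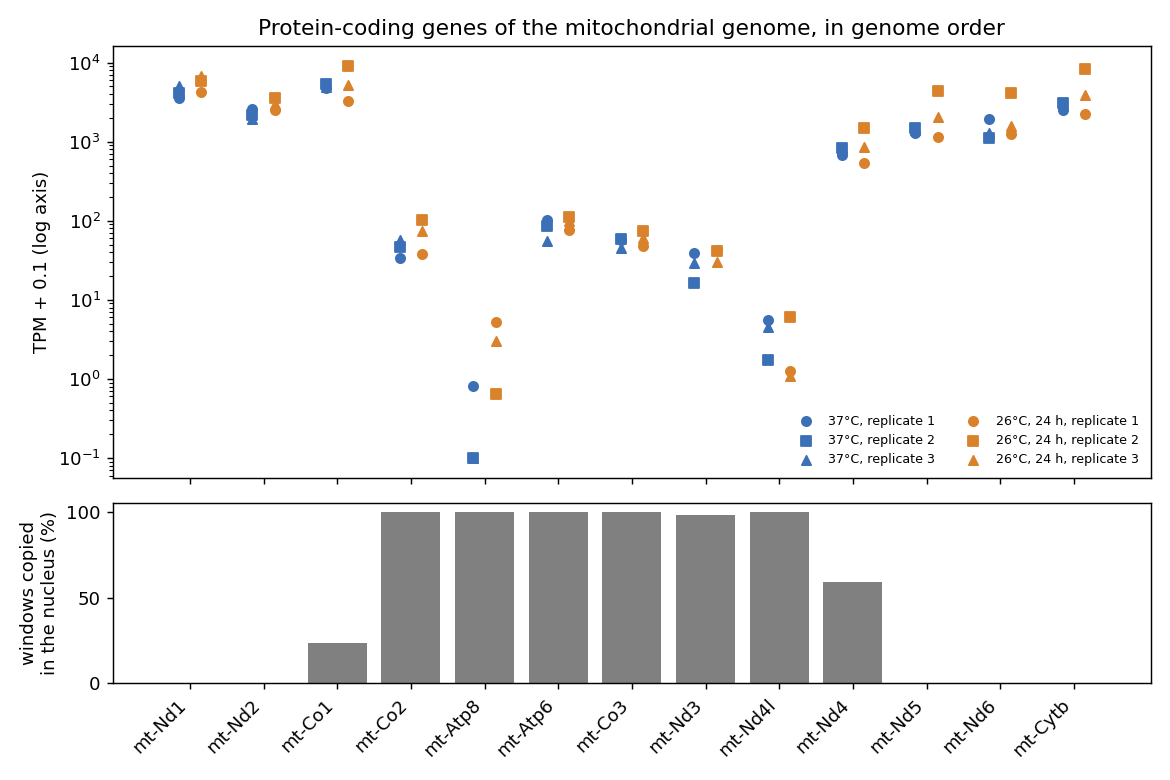
Upper panel: TPM + 0.1 on a log axis for the 13 mitochondrial protein-coding genes in genome order, 1 point per library (blue, 37°C; orange, 26°C for 24 h; marker shape, replicate number). Lower panel: percent of 150-base windows of each gene with an exact copy elsewhere in GRCm39; the genes at 100% sit at or below 111 TPM and those at 0% at or above 1108 TPM.

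mt-Atp8 and mt-Atp6 also share sequence with each other, since 43 bases at the end of the first are the start of the second. The stretch is shown, with the shared bases in capitals, because mt-Atp8 had 17 reads over all 6 libraries and mt-Atp6 had 3228.
mt-Atp8/mt-Atp6, chrM:7917-7979, plus strand: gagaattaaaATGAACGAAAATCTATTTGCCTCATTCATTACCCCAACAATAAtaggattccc
The shared bases open with the ATG start codon of mt-Atp6. How reads in such overlaps were assigned is not given in the sources used here.

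The protein-coding genes as a class were compared between conditions. They made up 1.77%, 1.83% and 1.87% of the library TPM in non-acclimated replicates 1, 2 and 3, and 1.53%, 3.74% and 2.37% in the cold-acclimated ones. Non-acclimated libraries differed little, while the cold-acclimated ones lay on both sides of them, and the groups overlapped. Within replicate numbers, the ratio of cold-acclimated to non-acclimated was 0.867, 2.04 and 1.27. Summed over the 5 genes with no copied window, the levels were 11923, 11927 and 12771 TPM at 37°C and 11334, 26374 and 17280 TPM at 26°C, which gives the same order of libraries.

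**Figure D2:**
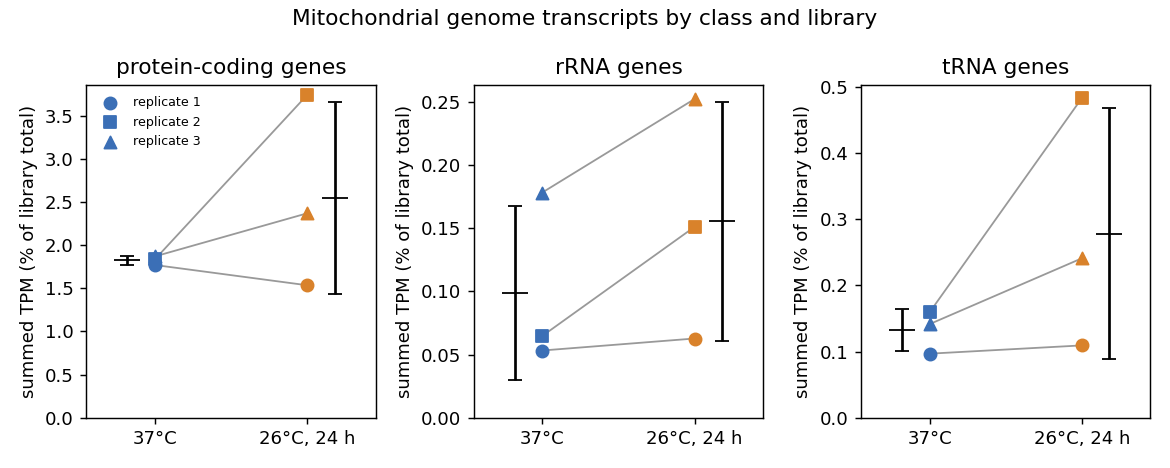
Summed TPM of the mitochondrial protein-coding, rRNA and tRNA genes as a percentage of the library total, at 37°C and after 24 h at 26°C. Lines join libraries with the same replicate number, and black bars give the mean and SD of 3 libraries; in each class the points of the conditions overlap and replicate 2 rises most.

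Of the 13 protein-coding genes, 0 were called with limma, in a background of 2.63% of all tested genes called higher and 16.0% called lower in cold-acclimated T cells. At an unadjusted p under 0.05 there was 1 gene (mt-Atp8), beside 7.75% of all tested genes in that direction. With voom on the recovered reads, which called 3.35% of all tested genes higher, 0 were called as well. The log2 fold changes ranged from -0.54 for mt-Nd4l to 1.47 for mt-Atp8, 12 of 13 were above 0, and their median was 0.44 beside -0.34 over all tested genes. After median of ratios scaling this median was 0.86 beside 0.03.

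The replicate numbers differed in direction. In replicate 1, 4 of the 13 genes were higher in cold-acclimated T cells, in replicate 2 all 13 were, and in replicate 3 there were 12. The median log2 difference of the 13 genes was -0.20, 0.86 and 0.38 in the 3 replicate numbers, beside -0.32, -0.44 and -0.24 over all tested genes. In all 3 replicates mt-Nd1, mt-Co2, mt-Atp8 and mt-Nd3 were higher, 4 of 13, where 18.2% of all tested genes were. No protein-coding gene had groups without overlap.

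Among the complex I subunits, mt-Nd1 was higher in the cold within every replicate number. Its level was 3528, 4078 and 5053 TPM in non-acclimated replicates 1 to 3 and 4213, 5834 and 6770 TPM in cold-acclimated ones. Each cold-acclimated library was above its partner, but the groups overlapped. Its log2 fold change was 0.40 (SE 0.29, limma adjusted p = 0.360), and in the paired fit the adjusted p was 0.110.

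mt-Nd5, the subunit at the far end of the proton-pumping arm of complex I, had 1301, 1472 and 1427 TPM at 37°C and 1136, 4444 and 2062 TPM at 26°C. Replicate 2 of the cold-acclimated cells stood apart on the high side and replicate 1 was below every non-acclimated library. Its log2 fold change was 0.64 (SE 0.47, limma adjusted p = 0.356). mt-Nd2 moved less between libraries, with 2591, 2167 and 1922 TPM at 37°C and 2504, 3616 and 2979 TPM at 26°C and a log2 fold change of 0.44 (SE 0.26, limma adjusted p = 0.256). The log2 fold changes of mt-Nd3, mt-Nd4 and mt-Nd4l were 0.48, 0.19 and -0.54, with limma adjusted p of 0.352, 0.751 and 0.535, and mt-Nd4l rested on 3 to 16 reads per library.

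mt-Nd6, another complex I subunit, is the only protein-coding gene on the minus strand, and its sense sequence is 28.1% G, against 5.88% to 16.1% in the other 12. Its level was 1952, 1108 and 1299 TPM in non-acclimated and 1254, 4180 and 1570 TPM in cold-acclimated libraries. The cold-acclimated libraries again spanned the non-acclimated ones. Its log2 fold change was 0.52 (SE 0.47, limma adjusted p = 0.471). Relative to the sum of the other 12 genes its level was 0.124, 0.0643 and 0.0747 at 37°C and 0.0890, 0.126 and 0.0710 at 26°C, and these ratios overlapped too.

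In complex III, mt-Cytb had 2552, 3102 and 3069 TPM at 37°C and 2228, 8301 and 3899 TPM at 26°C. The library of cold-acclimated replicate 2 was the highest by far and that of replicate 1 the lowest of all 6. For mt-Cytb the log2 fold change was 0.52 (SE 0.46, limma adjusted p = 0.451).

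For cytochrome c oxidase, mt-Co1 had 4846, 5381 and 4902 TPM at 37°C and 3260, 9192 and 5284 TPM at 26°C, with a log2 fold change of 0.10 (SE 0.39, limma adjusted p = 0.880). As a share of the mitochondrial protein-coding TPM, however, mt-Co1 was 27.4%, 29.3% and 26.2% in non-acclimated and 21.2%, 24.6% and 22.3% in cold-acclimated libraries. The highest cold-acclimated share was below the lowest non-acclimated one, and mt-Co1 was the only protein-coding gene whose share did not overlap between conditions. This share was looked at for all 13 genes and was not tested. mt-Co2 and mt-Co3 had log2 fold changes of 0.54 and 0.16 with limma adjusted p of 0.353 and 0.693.

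In ATP synthase, mt-Atp8 had 9, 1 and 6 reads in the cold-acclimated libraries beside 1, 0 and 0 in the non-acclimated ones. These few reads gave a log2 fold change of 1.47 (SE 0.54, limma adjusted p = 0.0890), and the paired fit called the gene (limma adjusted p = 0.0201, in a background of 3.75% called higher), as did voom with the same term (adjusted p = 0.0452, in a background of 5.08%). Its TPM ranges overlapped, and all its windows are copied on chromosome 1. mt-Atp6 had a log2 fold change of 0.24 (SE 0.30, limma adjusted p = 0.589).

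**Figure D3:**
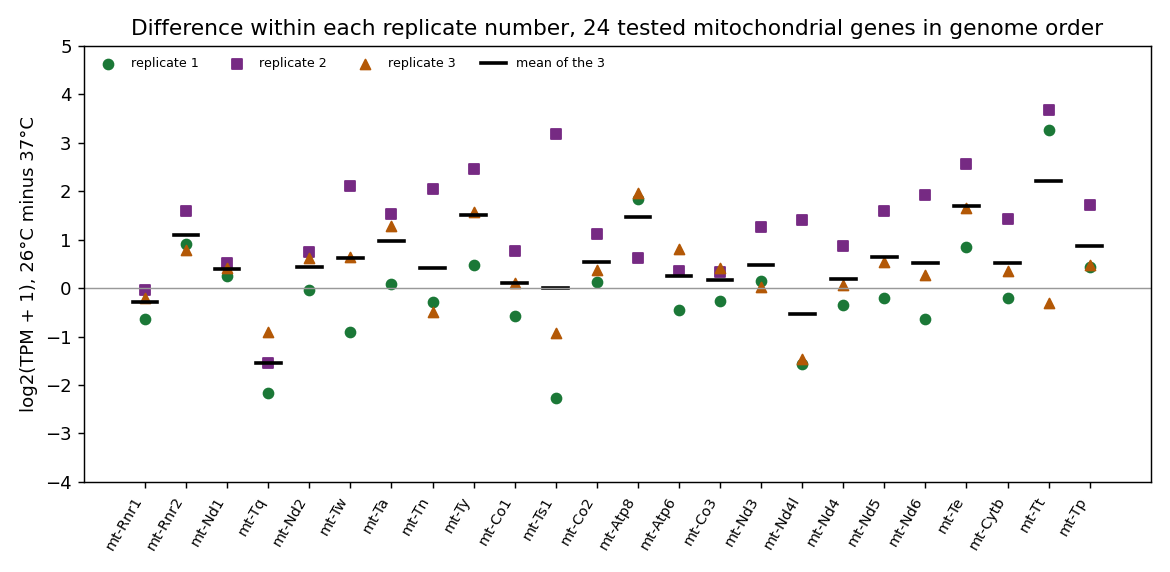
Difference in log2(TPM + 1), cold-acclimated (26°C) minus non-acclimated (37°C), within each replicate number for the 24 mitochondrial genes that passed the filter on low values, in genome order. Black bars are the means of the 3 replicate numbers. mt-Tq and mt-Rnr1 lie below 0 in every replicate number. mt-Rnr2, mt-Nd1, mt-Ta, mt-Ty, mt-Co2, mt-Atp8, mt-Nd3, mt-Te and mt-Tp lie above 0 in every replicate number.

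The rRNA genes, which encode the RNAs of the small (mt-Rnr1) and large (mt-Rnr2) subunits of the mitochondrial ribosome, went in opposite directions. mt-Rnr2 had 233, 434 and 1145 TPM in non-acclimated replicates 1 to 3 and 436, 1304 and 1973 TPM in cold-acclimated ones. Every cold-acclimated library was above its partner, by a factor of 1.88, 3.00 and 1.72. The spread between replicate numbers was wider, from 233 to 1145 TPM in non-acclimated and from 436 to 1973 TPM in cold-acclimated libraries. This spread made the groups overlap. For mt-Rnr2 the log2 fold change was 1.09 (SE 0.70, limma adjusted p = 0.301). Limma and voom without pairing called 0 of the 2 rRNA genes, and 0 had an unadjusted p under 0.05. The paired fit called mt-Rnr2 (SE 0.22, limma adjusted p = 0.0126), as did voom with the same term (log2 fold change 1.22, adjusted p = 0.00707) and the paired fit after median of ratios scaling (log2 fold change 1.51, limma adjusted p = 0.0122, in a background of 9.24% called higher and 12.4% lower). Without non-acclimated replicate 1 the unpaired log2 fold change was 0.56 and without cold-acclimated replicate 1 it was 1.72.

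mt-Rnr1 had 300, 213 and 639 TPM at 37°C and 191, 208 and 552 TPM at 26°C. Each cold-acclimated library was below its partner, by little in replicate 2, and 47.9% of all tested genes were likewise lower in all 3 replicates. The log2 fold change was -0.30 (SE 0.53, limma adjusted p = 0.726), and after median of ratios scaling it was 0.12, so its direction depended on the scaling. In the paired fit the adjusted p was 0.280.

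The ratio of mt-Rnr2 to mt-Rnr1 does not depend on the scaling between libraries. It was 0.777, 2.04 and 1.79 in non-acclimated and 2.28, 6.26 and 3.58 in cold-acclimated T cells. The lowest cold-acclimated ratio was above the highest non-acclimated one, and within replicate numbers the ratio was 2.94, 3.07 and 1.99 times higher in the cold. Neither rRNA gene has a copied window of 150 bases. The ratio was chosen after the values of both genes were seen and has no test. Both rRNA genes together had 532, 647 and 1784 TPM at 37°C and 627, 1512 and 2525 TPM at 26°C. Summed rRNA relative to the summed protein-coding TPM was 0.0301, 0.0353 and 0.0954 at 37°C and 0.0409, 0.0404 and 0.107 at 26°C, and replicate 3 was the highest in both conditions.

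**Figure D4:**
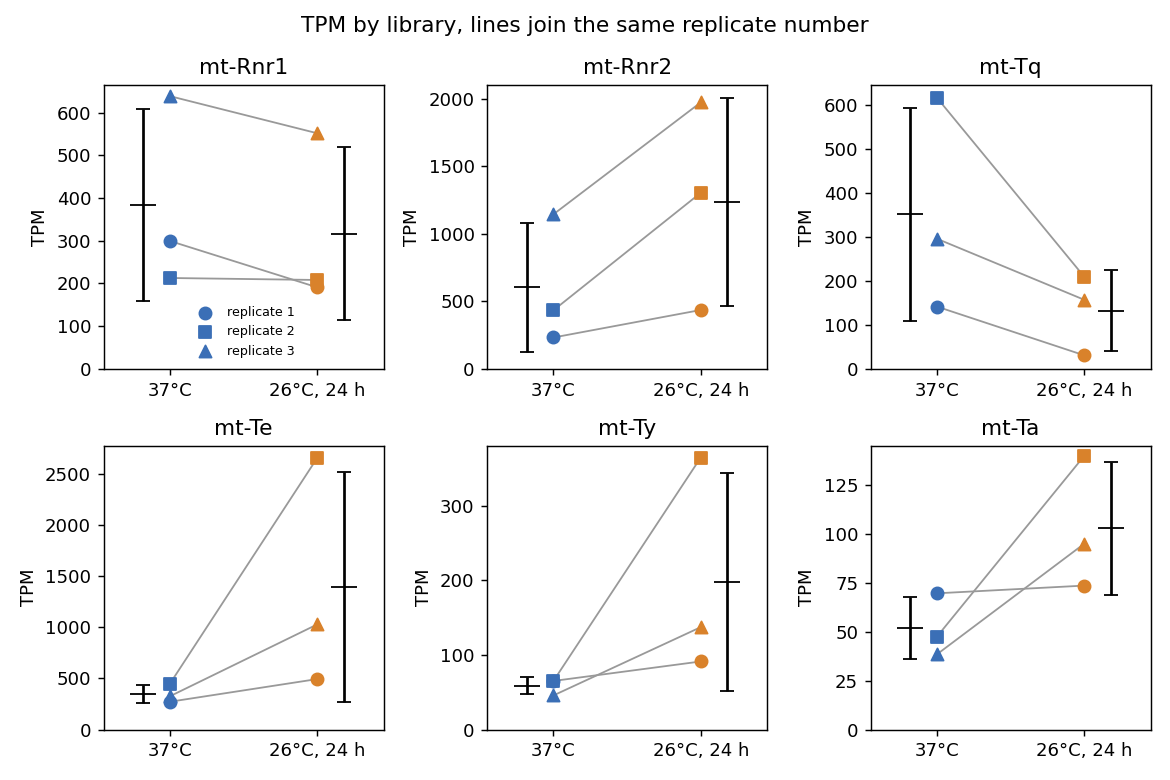
TPM by library of mt-Rnr1, mt-Rnr2 and 4 minus-strand tRNA genes at 37°C and after 24 h at 26°C. Lines join libraries with the same replicate number, black bars give mean and SD of 3 libraries and each axis starts at 0. mt-Rnr2, mt-Te, mt-Ty and mt-Ta rise along every line, and mt-Tq and mt-Rnr1 fall along every line, mt-Rnr1 by little in replicate 2.

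Reads fell on only some of the tRNA genes. Of the 22, 11 were listed at 0 in every library, 9 passed the filter on low values, and mt-Tl1 and mt-Tc had 1 read each over the 6 libraries. For the genes at 0, the absence of reads allows a level of up to 3.51 to 7.42 TPM, depending on gene and library (3 reads, counting error only). All 11 lie on the plus strand, which holds 14 tRNA genes, and none of the 8 on the minus strand was at 0.

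Position separated the genes further. For each tRNA gene the distance to the nearest gene on the same strand was taken on both sides, along the linear reference, and the wider side kept. The 8 genes with at least 311 free bases on that side had 30 or more reads each over the 6 libraries, and all passed the filter. The other 14 had at most 70 free bases on this linear count and no more than 11 reads each, and 1 of them, mt-Tn, passed. Among the 14 is mt-Tf, which starts at base 1 of the reference, so that its free side was cut off. On the circle it borders the same 944 free bases as mt-Tt, and it had 0 reads. The clean split thus depends on where the circle is cut. Of the plus-strand genes, those with more than 1 read were mt-Tw, which has 311 bases up to mt-Co1 because the genes between them lie on the other strand, and mt-Tt, the last gene before the control region. What part the free sequence has in these reads was not tested.

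**Figure D5:**
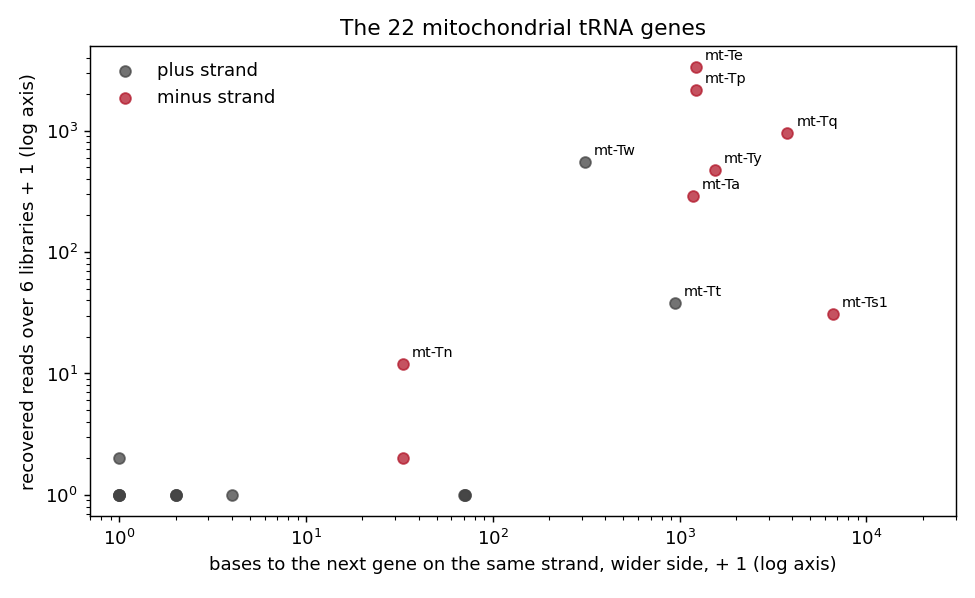
Recovered reads over the 6 libraries + 1 against the bases to the next gene on the same strand on the wider side + 1, along the linear reference (overlapping neighbours set to 0). Both axes are log axes, with 1 point per tRNA gene of the mitochondrial genome, coloured by strand. Genes with at least 5 reads are named; points on the bottom row, some of them on top of each other, are the 11 genes without reads.

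Together the tRNA genes had 968, 1594 and 1415 TPM in non-acclimated and 1093, 4837 and 2412 TPM in cold-acclimated libraries, which were 1.13, 3.04 and 1.70 times higher within replicate numbers. The groups overlapped. Of the 9 tested genes limma called 0, beside 2.63% of all tested genes called higher, and voom called 0. At an unadjusted p under 0.05 there were 4, mt-Ta, mt-Ty, mt-Te and mt-Tt, all higher in the cold, beside 7.75% of all tested genes in that direction. The paired fit called 3 (mt-Te and mt-Ty higher, mt-Tq lower), in a background of 3.75% higher and 21.9% lower, and median of ratios scaling also called 3 (mt-Ta, mt-Te and mt-Ty), in a background of 6.87% higher and 8.6% lower. Voom with the replicate number as a term called the same 3 genes as the paired fit, in a background of 5.08% higher and 21.0% lower. In 3 genes, mt-Ta, mt-Ty and mt-Te, every cold-acclimated library was above every non-acclimated one, where 9.69% of all tested genes were. The median log2 fold change of the 9 genes was 0.87, and 1.28 after median of ratios scaling.

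mt-Te, the glutamate tRNA gene, adjoins mt-Nd6 on the minus strand and precedes it in the direction of transcription. Averaged over all 6 libraries it had the highest tRNA level. At 37°C alone the means of mt-Tp and mt-Tq, 383 and 352 TPM, were above the 350 TPM of mt-Te. mt-Te had 273, 450 and 326 TPM at 37°C and 494, 2654 and 1028 TPM at 26°C, from 129 to 1648 reads. The groups did not overlap, and the partners differed by factors of 1.81, 5.90 and 3.15. The log2 fold change was 1.69 (SE 0.57, limma adjusted p = 0.0707), with an adjusted p of 0.0109 in the paired fit and 0.0423 after median of ratios scaling. Relative to its neighbour mt-Nd6, mt-Te was 0.140, 0.406 and 0.251 at 37°C and 0.394, 0.635 and 0.655 at 26°C, higher in the cold in each replicate number but with overlap between the groups. The tRNA genes are shorter than 150 bases, so windows of that length could not score them. With shorter windows, 100% of those of mt-Te and mt-Ty occur letter for letter elsewhere in GRCm39, 0% on chromosome 1. Among the other tRNA genes with sequences shown, the share was 5% in mt-Ta and 0% in mt-Tq and mt-Tp. The part of these copies in the levels of mt-Te and mt-Ty was not tested.

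mt-Ty, the tyrosine tRNA gene, had 65.3, 65.4 and 45.9 TPM at 37°C and 91.4, 365 and 137 TPM at 26°C. All cold-acclimated libraries were above all non-acclimated ones. For mt-Ty the log2 fold change was 1.50 (SE 0.48, limma adjusted p = 0.0637), and the paired fit gave an adjusted p of 0.0215. mt-Ta, the alanine tRNA gene, had 69.8, 47.6 and 38.5 TPM at 37°C and 73.7, 140 and 95.1 TPM at 26°C, so that replicate 1 hardly differed. Its log2 fold change of 0.97 (SE 0.33, limma adjusted p = 0.0722) stayed under the size threshold in the paired fit as well (adjusted p = 0.0494).

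mt-Tq, the glutamine tRNA gene, moved the other way. It had 142, 617 and 296 TPM in non-acclimated and 30.9, 210 and 157 TPM in cold-acclimated libraries. The groups overlapped, since the 37°C library of replicate 1 was below 2 of the cold-acclimated ones. Each cold-acclimated library was below its partner, at 0.218, 0.340 and 0.531 of its level, and 47.9% of all tested genes were likewise lower in all 3 replicates. For mt-Tq the log2 fold change was -1.54 (SE 0.78, limma adjusted p = 0.194), and in the paired fit the adjusted p was 0.00914 (SE 0.27). The ratio of mt-Tq to mt-Te was 0.520, 1.37 and 0.907 at 37°C and 0.0626, 0.0790 and 0.153 at 26°C. This ratio of minus-strand genes did not overlap between conditions, and it was chosen after the values were seen and has no test.

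mt-Tp, the proline tRNA gene and the first on the minus strand after the control region, had 224, 341 and 583 TPM at 37°C and 302, 1116 and 810 TPM at 26°C. Each cold-acclimated library was above its partner and the groups overlapped. The log2 fold change was 0.87 (SE 0.54, limma adjusted p = 0.282), and the paired fit gave an adjusted p of 0.0533. mt-Tw, the tryptophan tRNA gene, fell outside the rule for named genes. It had 152, 70.8 and 110 TPM at 37°C and 81.1, 307 and 174 TPM at 26°C, without a common direction. mt-Tt, the threonine tRNA gene, had the highest log2 fold change, 2.21 (SE 0.87, limma adjusted p = 0.106), on 0, 1 and 6 reads at 37°C and 5, 21 and 4 reads at 26°C. Without non-acclimated replicate 3 it was called, with a log2 fold change of 2.99 and a limma adjusted p of 0.0462, in a background of 3.23% called higher. mt-Ts1 and mt-Tn rested on 30 and 11 reads in all.

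The nuclear genes that act on the mitochondrial genome were set beside these values, in 12 lists. Among the transcription machinery limma called 0 of 8 tested genes, 2 had an unadjusted p under 0.05, and voom called 0. Polrmt, the mitochondrial RNA polymerase, had a mean of 29.8 ± 5.45 TPM at 37°C and 15.2 ± 1.82 TPM at 26°C without overlap, and its log2 fold change of -0.92 (SE 0.25, limma adjusted p = 0.0384) was under the size threshold and -0.52 after median of ratios scaling (adjusted p = 0.160). Tfam, the packaging and transcription factor of mitochondrial DNA, had 54.2 ± 9.39 and 51.1 ± 4.36 TPM (log2 fold change -0.07, limma adjusted p = 0.852). After median of ratios scaling its log2 fold change was 0.33.

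Of 16 tested genes that maintain mitochondrial DNA, 3 were called, all lower in cold-acclimated T cells, which is a share near the 16.0% of all tested genes called lower. Dguok, the mitochondrial deoxyguanosine kinase that salvages nucleotides, went from 19.2 ± 8.79 to 1.88 ± 1.32 TPM (log2 fold change -2.82, SE 0.43, limma adjusted p = 0.00869). Mgme1, an exonuclease of mitochondrial DNA, had a log2 fold change of -1.40 and Primpol, a primase and polymerase, of -1.83, and the call of Primpol was lost after median of ratios scaling (limma adjusted p = 0.0561). Polg, the catalytic subunit of the mitochondrial DNA polymerase, had a log2 fold change of -0.71 (limma adjusted p = 0.254). In the paired fit its limma adjusted p was 0.0485, with the log2 fold change under the size threshold.

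Of 23 tested genes listed for RNA processing and tRNA modification, 2 rose and 5 fell, where 2.63% of all tested genes were called higher and 16.0% lower. The list also holds a ribosomal protein gene, which was among those that fell. Yrdc, which takes part in making the threonylcarbamoyl modification of tRNAs, rose from 80.0 ± 26.6 to 305 ± 36.9 TPM (log2 fold change 1.96, SE 0.28, limma adjusted p = 0.00800). Alkbh1, a dioxygenase that acts on tRNAs, was the other gene that rose (log2 fold change 1.22, limma adjusted p = 0.0285), and it is named outside the rule for named genes, as is Gtpbp3. Fastkd5, which is needed for processing mitochondrial precursor RNAs that no tRNA delimits, fell from 11.0 ± 3.04 to 1.86 ± 0.426 TPM (log2 fold change -2.05, SE 0.30, limma adjusted p = 0.00846). Mto1 and Gtpbp3, which together modify the wobble uridine of a set of mitochondrial tRNAs including those for glutamate and glutamine, had log2 fold changes of -1.82 and -1.52 (limma adjusted p = 0.0108 and 0.0124).

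Of 17 tested genes for RNA stability, polyadenylation and decay, 1 was called lower, beside 16.0% of all tested genes. It was the nuclease gene Exog, with a log2 fold change of -1.33 (SE 0.38, limma adjusted p = 0.0470) that was -0.97 and not called after median of ratios scaling. Lrpprc and Slirp, which form a complex that binds and stabilizes mitochondrial mRNAs, had log2 fold changes of -0.45 and -0.69 (limma adjusted p = 0.251 and 0.0980), and Mtpap, the mitochondrial poly(A) polymerase, of 0.44 (adjusted p = 0.230). In the paired fit the limma adjusted p of Lrpprc, Slirp and Mtpap were 0.109, 0.0299 and 0.161, with all log2 fold changes under the size threshold. Of 21 tested genes for rRNA modification and ribosome assembly, 8 fell, beside 16.0% of all tested genes. They included Mtg1, a GTPase of large subunit assembly (log2 fold change -1.75), Tfb1m, which dimethylates the rRNA of the small subunit (log2 fold change -2.13), and Nsun4, a methyltransferase of the same rRNA (log2 fold change -1.23), with limma adjusted p of 0.0144, 0.0186 and 0.0190. The call of Nsun4 was lost after median of ratios scaling (limma adjusted p = 0.0502). That scaling left 4 of the 8, where it called 8.6% of all tested genes lower.

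Of 22 tested genes listed for translation, 9 fell and 0 rose, where 16.0% of all tested genes were called lower. The list is not limited to translation factors, and those that fell include assembly factors such as Coa3. Taco1, a translational activator of mt-Co1, went from 27.2 ± 6.67 to 2.98 ± 2.59 TPM (log2 fold change -2.98, SE 0.46, limma adjusted p = 0.00898). Mtrfr, a ribosome rescue factor, and Coa3, an assembly factor of cytochrome c oxidase that binds newly made mt-Co1 protein, had log2 fold changes of -2.63 and -2.10 (limma adjusted p = 0.00940 and 0.0124). After median of ratios scaling 5 of the 9 were called, where 8.6% of all tested genes were called lower. Of 8 tested biogenesis regulators limma called 0 (0 at an unadjusted p under 0.05 and 0 with voom), with the smallest p for Pprc1 (log2 fold change 0.75, limma adjusted p = 0.135), and Ppargc1a was at or near 0 in every library.

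The nuclear partners of the mitochondrial subunits comprised 37 tested genes of complex I, 9 of complex III, 11 of complex IV and 17 of ATP synthase. Limma called 0 in each list, also in the paired fit, and voom called 0, with 2 genes at an unadjusted p under 0.05 in complex I and 0 in the other lists. Their median log2 fold changes were -0.09, 0.06, 0.09 and 0.04, beside 0.44 for the 13 mitochondrial genes and -0.34 for all tested genes. For complex III, complex IV and ATP synthase, the smallest p belonged to Uqcrc1, Cox6c and Atp5mc1, with log2 fold changes of -0.51, 0.38 and 0.59 (limma adjusted p = 0.163, 0.393 and 0.166). Atp5mc1 was called higher after median of ratios scaling (log2 fold change 1.00, limma adjusted p = 0.0334). In complex II, which has no mitochondrial subunit, 1 of 4 was called lower, beside 16.0% of all tested genes. It was Sdha, the flavoprotein subunit, with a log2 fold change of -1.41 (SE 0.39, limma adjusted p = 0.0418) that was not called after median of ratios scaling (adjusted p = 0.0846).

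Across the 6 libraries, the nuclear protein-coding genes whose log2(TPM + 1) was most like that of the summed mitochondrial protein-coding genes were Mnt, Zfand3 and Rbms1, with Pearson correlations of 0.995, 0.977 and 0.965 among 8876 genes compared. Mnt, a transcriptional repressor that dimerizes with Max, had 11.4, 12.03 and 13.04 TPM at 37°C and 10.7, 27.9 and 16.6 TPM at 26°C, which is the same order of libraries. These correlations are picked as the highest of many over few libraries that share their depth and composition, and are a description only.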

How the data were processed

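RNA was sequenced from D10 T cells, 3 cultures at 37°C and 3 at 26°C, each for 24 h. As deposited by the authors, the values are TPM, made from poly(A)+, strand-specific, paired-end libraries that were trimmed with Trimmomatic 0.38, checked with FastQC 0.11.7, aligned to GRCm39 with HISAT2 2.1.0 and counted per gene with featureCounts 1.6.3, according to the submitters' processing notes. The strand setting, the treatment of reads with several alignments and the annotation release are not given in the sources used.

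From these values, genes averaging 1 TPM or more were tested with limma 3.58.1 in R 4.3.3 (lmFit, eBayes with a trend) on log2(TPM + 1), without a replicate term. Because the deposited unit is TPM, the main test was on the log scale and not on counts. Whole reads were recovered from the TPM steps of 100% of the 21195 genes above 0, with a largest deviation of 1.16e-10 reads, and served for depth and for voom. Correlations of deviations from the condition means were 0.48, 0.50 and 0.51 within and -0.41 to 0.02 between replicate numbers. They were computed over all tested genes, and every same-numbered pair passed 0.1, so the numbers pair the libraries. Windows of 150 bases of the mitochondrial genome, and shorter ones, were matched exactly against GRCm39. The mitochondrial genes are listed under other symbols (COX1, TrnE) and were given mouse names by position. The named genes are all mitochondrial mRNAs and rRNAs, the 3 highest, any called and the extreme tRNAs, up to 3 called genes of each pathway list or else the one with the smallest p, Polrmt, Tfam, Lrpprc, Slirp, Mtpap, Polg and Ppargc1a, and the 3 most similar nuclear genes. Not every gene that this rule takes is reported here. Members and lists were chosen with earlier results of these data known. Of 8 nuclear copies annotated as genes that were looked for by name, 0 are in the table. The scripts were tested on simulated data.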

Additional observations from a re-analysis of the deposited data

How the results depend on the processing

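Without pairing, 0 mitochondrial genes were called in each class. The replicate block, in which the replicate number is a term, gave 1 protein-coding, 1 rRNA and 3 tRNA genes, and so did voom with the replicate block. Over all tested genes the block called 3.75% higher and 21.9% lower, and voom with the block 5.08% higher and 21.0% lower. Among the other named genes the block changed no call. Median of ratios scaling gave 3 tRNA genes, in a background of 6.87% of all tested genes called higher and 8.6% lower. With the block added it gave 1 protein-coding, 1 rRNA and 6 tRNA genes, in a background of 9.24% higher and 12.4% lower. Of the 6 tRNA genes, mt-Ta, mt-Ty, mt-Te, mt-Tp and mt-Tt were higher and mt-Tq lower. Leaving out 1 library gave 0 to 1 tRNA genes, the 1 being mt-Tt without non-acclimated replicate 3. Of the pathway genes 2 were called higher and 27 lower, where 2.63% of all tested genes were called higher and 16.0% lower. The counts were 1 and 15 without the filter on low values, 6 and 14 with median of ratios scaling, and 8 and 17 with that scaling and the block. With that scaling, with or without the block, the shares of all tested genes given above also rose for higher and fell for lower calls. Leaving out 1 library gave 1 to 5 higher and 4 to 36 lower pathway genes. There were 5 higher without non-acclimated replicate 3, where 3.23% of all tested genes were called higher. There were 7, 4, 5 and 7 lower without non-acclimated replicates 1 and 2 and cold-acclimated replicates 1 and 2. Shares of all tested genes are not given for the fit without the filter and most fits without 1 library. These moves are therefore not read as particular to the pathway genes. On the log2 scale, cold-acclimated minus non-acclimated, the protein-coding share of the library was 0.39 with a range of 0.064 to 0.71 when 1 library was left out and the tRNA share 0.85 (0.32 to 1.40), in both lowest without cold-acclimated replicate 2 and highest without cold-acclimated replicate 1. In the same way, the rRNA share of the library was 0.65 with a range of 0.20 to 1.20 when 1 library was left out, the ratio of rRNA to protein-coding TPM 0.27 (-0.20 to 0.78), and the ratio of mt-Rnr2 to mt-Rnr1 1.39 (0.96 to 1.74). Some log2 fold changes turned sign, none of them called. That of mt-Rnr1 was 0.12 after median of ratios scaling, with or without the block, and ranged from -0.78 to 0.15 when 1 library was left out. That of mt-Ts1 was 0.20 with voom, 0.88 with a pseudocount of 0.1, 0.28 after median of ratios scaling, with or without the block, and 0.012 when scaled to the nuclear genome, and ranged from -1.24 to 1.36. Tfam was at 0.0513 with voom, at 0.0505 with voom and the block, and at 0.33 after median of ratios scaling, with or without the block, and ranged from -0.22 to 0.032. Leaving out 1 library also moved mt-Tn between -0.34 and 1.08, mt-Co1 between -0.28 and 0.47, mt-Atp6 between -0.01 and 0.44, mt-Nd4 between -0.19 and 0.55 and mt-Nd6 between -0.0086 and 0.86. The values without non-acclimated or cold-acclimated replicates rest on the other libraries for the spread, and the cause of these moves was not tested. Voom with the block, median of ratios scaling with the block and the sum over genes with no copied window (0.50 on the log2 scale, beside 0.39 for all protein-coding genes) were chosen after seeing the data. At 0 to 21 reads per library, mt-Atp8, mt-Nd4l, mt-Tt, mt-Tn and mt-Ts1 are limited by depth.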
